A study of Mus musculus with 12 samples.

Results

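Zinc finger protein genes with a Zfp name were followed through array-based comparative genomic hybridization (aCGH) of 12 mouse liver tumors, in which fluorescent tumor DNA competes with DNA of non-tumor liver for each probe. The members are the autosomal genes whose name on the array is Zfp followed by a number: 220 genes with 393 probes, of 19850 named autosomal genes and 40666 autosomal probes. A further 4 Zfp genes outside the autosomes were left out. All mice were Mdr2-KO/FVB (FVB.129P2-Abcb4tm1Bor), which lack the canalicular phospholipid transporter Abcb4 in every tissue and develop chronic liver inflammation and then hepatocellular carcinoma. The post-PHx group held 6 tumors of 9-month-old mice that had undergone 70% partial hepatectomy (PHx) at 3 or 6 months (PHx1M, PHx2F, PHx3M, PHx4M, PHx5M and PHx6F, where the letter gives the sex). The spontaneous group held 6 tumors of untreated mice aged 13 to 14 months (Spon1M, Spon2M, Spon3F, Spon4F, Spon5F and Spon6F). Age and treatment therefore differ together between the groups and cannot be told apart. Of the post-PHx tumors 4 came from males, and of the spontaneous tumors 2. Each tumor was hybridized in Cy5 on 1 array, in competition with Cy3-labelled liver that the tumor had not reached, taken from the mouse that bore it. Both channels carry the knockout, so a ratio shows only what differs between the tumor and its own liver.

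Most Zfp genes encode proteins with tandem C2H2 zinc fingers, each finger gripping a zinc ion and a few bases of DNA. Many also carry a KRAB domain, which recruits the corepressor Trim28 and, through it, the histone methyltransferase Setdb1 to silence transposable elements. These genes arose by repeated tandem duplication and lie in clusters, so that a change in the copy number of 1 chromosome segment can carry a whole row of them. Some members of the name series are of another kind: Zfp36 binds AU-rich elements and speeds the decay of mRNAs, and Zfp313 and Zfp650 are ubiquitin ligases now named Rnf114 and Ubr3.

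With 6 arrays per group, the number of arrays limits the precision of every group mean. On the post-PHx arrays the median tumor signal was 3.80 to 8.27 times its background and the liver signal 7.07 to 16.9 times; on the spontaneous arrays these were 5.31 to 11.9 and 13.9 to 25.9 times. At least 98.5% of the spots of Zfp genes stood well above background on every array, and none was saturated. The noise between neighbouring probes (a robust SD on the log2 scale) was 0.16 to 0.19 in the post-PHx and 0.15 to 0.26 in the spontaneous tumors, highest in Spon2M. Of the 220 genes, 86 rested on a single probe, 107 on 2 and 27 on more. The arrays lay on 3 slides: PHx1M to PHx4M on the first, Spon1M to Spon4F on the last, and PHx5M, PHx6F, Spon5F and Spon6F together on the second. No array had its dyes swapped, so a probe shifted the same way on all arrays cannot be told apart from a dye bias.

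A gene is called gained here at a log2 ratio of at least 0.4 (a ratio of 1.32) and lost at -0.4 or less, after each array was centred on its autosomal median. The Zfp genes as a family sat at 0: the median over members, averaged over tumors, was 0.02 ± 0.01 (SD, n = 6) in post-PHx and 0.01 ± 0.02 (SD, n = 6) in spontaneous tumors on the log2 scale. The share of them that was gained differed greatly between tumors, and in PHx1M and PHx3M it was more than 2 times that of all genes. Zfp458 in PHx3M, Zfp691 in PHx5M and Zfp191 in Spon6F had no usable spot, and their values there are missing from counts and tests. Of the 220 genes, 117 were past the threshold in no tumor in either direction.

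In PHx3M, 34 Zfp genes were gained, 15.5% against 6.01% of all genes. In PHx4M, 20 were gained, 9.09% against 5.92%. In PHx1M, 17 were gained, 7.73% against 2.71%. The other post-PHx tumors had few: PHx2F had 4 (1.82% against 3.07%), PHx6F had 4 (1.82% against 1.57%) and PHx5M had 2 (0.913% against 0.946%). Among the spontaneous tumors, Spon1M had 20 gained Zfp genes (9.09% against 7.29% of all genes), Spon2M 15 (6.82% against 10.1%) and Spon5F 7 (3.18% against 2.76%). The 15 of Spon2M include Zfp341, Zfp469, Zfp777 and Zfp90, through probes described below that were low in Spon1M and Spon3F. Zfp768, at 0.64 in Spon2M, was low in the same tumors. Spon4F had 5 (2.27% against 3.19%), Spon3F 3 (1.36% against 0.82%) and Spon6F 3 (1.37% against 1.15%). Averaged over tumors, 6.15% ± 5.73 (SD, n = 6) of the Zfp genes were gained in post-PHx and 4.02% ± 3.21 (SD, n = 6) in spontaneous tumors. The same averages over all genes were 3.37% ± 2.15 and 4.22% ± 3.69 (SD, n = 6), so that the Zfp genes lay above all genes in post-PHx tumors only, and by less than the SD between tumors. The groups overlapped widely.

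Losses of Zfp genes lay mostly in spontaneous tumors. Spon3F had 16 (7.27% against 9.01% of all genes), Spon2M 14 (6.36% against 8.27%) and Spon5F 7 (3.18% against 7.12%). Spon6F had 7 (3.20% against 1.93%), Spon1M 6 (2.73% against 4.12%) and Spon4F 2 (0.909% against 0.696%). The counts of Spon1M and Spon3F include Zfp341, Zfp469, Zfp777 and Zfp90, through probes described below that were high in Spon2M. Zfp768 moved the same way, at -0.92 in Spon1M, -0.82 in Spon3F and 0.64 in Spon2M. Apart from Zfp37, all losses of Spon1M were of these genes. No post-PHx tumor had more than 5. PHx6F had 5 lost Zfp genes (2.27% against 1.1% of all genes), PHx5M 3 (1.37% against 1.13%) and PHx1M 2 (0.909% against 1.8%). PHx2F had 1 (0.455% against 0.909%), PHx3M 1 (0.457% against 0.448%) and PHx4M 1 (0.455% against 0.834%). The lost share of Zfp genes was below that of all genes in 7 tumors and above it in PHx3M, PHx5M, PHx6F, Spon4F and Spon6F. Averaged over tumors it was 0.986% ± 0.729 in post-PHx and 3.94% ± 2.40 in spontaneous tumors, beside 1.04% ± 0.447 and 5.19% ± 3.46 of all genes (SD, n = 6).

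**Figure D1:**
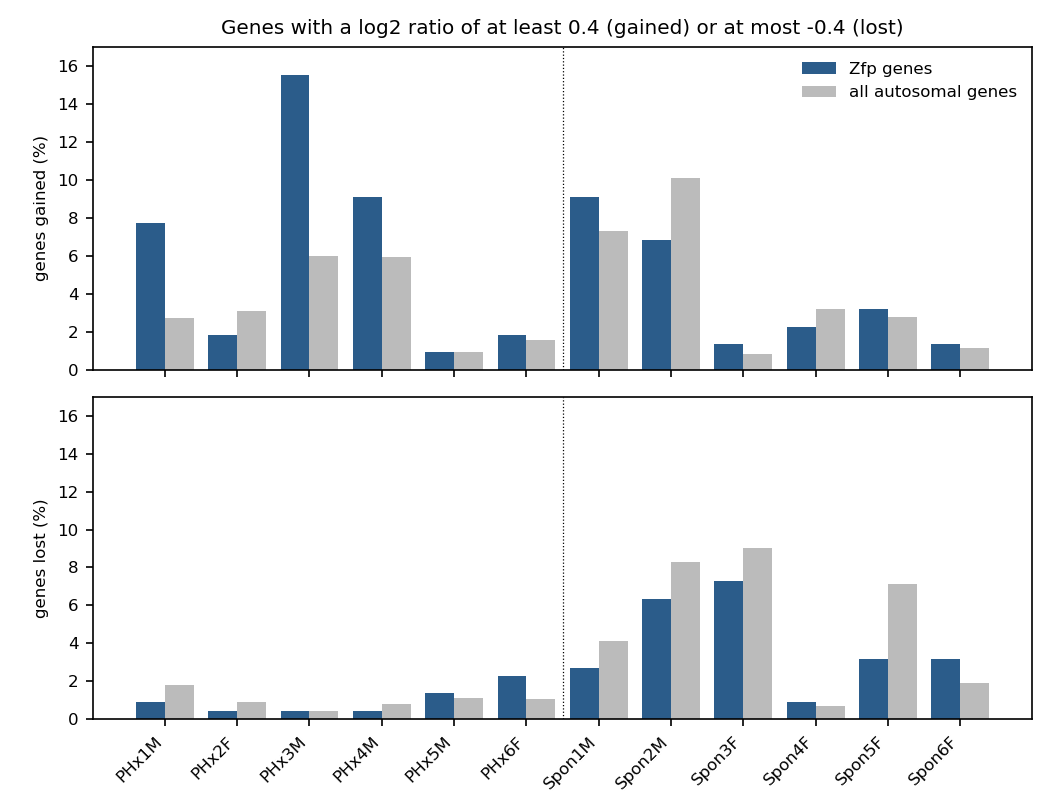
Percent of the Zfp genes (blue) and of all autosomal genes (grey) with a log2 ratio of at least 0.4 (top) or at most -0.4 (bottom) in each tumor, 1 array per tumor; the dotted line separates post-PHx from spontaneous tumors. The blue bar of PHx3M reaches 15.5% beside 6.01% for all genes, and losses are mostly in the spontaneous tumors. Losses in Spon1M and Spon3F and gains in Spon2M include Zfp341, Zfp469, Zfp777 and Zfp90, through probes described in the text.

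Copy number changes span many probes, so each Zfp gene past the threshold was set against the median of its 10 flanking probes from other genes, 5 on each side. Of the 81 gains of Zfp genes summed over the post-PHx tumors, 68 (84.0%) had flanks of at least 0.2 in the same direction, against 69.8% of the gains of all genes. Among these 81, 24 in PHx3M, 9 in PHx1M and 7 in PHx4M came from 1 stretch of chromosome 7 described below. The cases are therefore not independent. In spontaneous tumors this held for 30 of 53 gains (56.6%, against 59.7%). Losses of Zfp genes were shared with their surroundings in 1 of 13 cases in post-PHx tumors (7.69%, close to the 7.18% of all genes) and in 11 of 52 in spontaneous tumors (21.2%, against 41.5% for all genes). In Spon3F, which had the most losses, the flanks shared 0 of 16, where they shared 8.43% of the losses of all genes. The 2 losses of Spon4F and those of all post-PHx tumors but PHx5M were not shared either.

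About 49.1% of the members (108 genes) lay in 19 clusters of at least 3 Zfp genes with no more than 1 Mb between neighbours, and chromosome 7 alone held 51 of the 220 members (23.2%, against 7.98% of all genes). In 14 of the 19 clusters the mean log2 ratio stayed within 0.4 of 0 in every tumor. The 5 exceptions were 5 of the 228 combinations of cluster and tumor. In no cluster were the values of the groups separate.

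The 3 of these 5 that stood highest were neighbouring clusters of chromosome 7, all in PHx3M. The first ran from Zfp180 to Zfp526 (11 genes, chr7:23794651-24930777 in the mm8 build of the array), the second from Zfp60 to Zfp36 (4 genes, chr7:27448969-28085573) and the last from Zfp84 to Zfp146 (9 genes, chr7:29484418-29878003). In PHx3M their mean log2 ratios were 1.15, 1.15 and 1.22, ratios of tumor over liver of 2.23, 2.22 and 2.32. All 24 genes were gained there, from 0.83 in Zfp61 to 1.41 in Zfp260, and the ranges of the clusters overlapped. The first cluster was at 0.29 in PHx1M, 0.33 in PHx4M and 0.26 in Spon1M. The second was at 0.34, 0.23 and 0.14 in the same tumors, and the last at 0.33, 0.38 and 0.33. Array ratios cannot tell a small gain in all tumor cells from a larger one in a share of them, or from more admixed non-tumor cells. These 3 tumors lay far below PHx3M and above most others; PHx2F, PHx5M, PHx6F, Spon2M, Spon5F and Spon6F stayed between -0.09 and 0.15 in all 3 clusters. Spon4F had 0.13, 0.14 and 0.24, and Spon3F -0.03, -0.35 and 0.12.

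The genes in between moved with them. Of 121 other genes measured between the first and the last Zfp gene of this 6.08 Mb stretch, 98.3% were gained in PHx3M, with a median of 1.11 beside 1.21 for the 24 Zfp genes. In PHx1M the medians were 0.26 for the other genes and 0.32 for the Zfp genes, in PHx4M 0.28 and 0.32, and in Spon1M 0.22 and 0.23. The gain in PHx3M therefore covered the segment and not the Zfp genes alone. Without the 24 genes, 5.13% of the remaining Zfp genes were gained in PHx3M against 5.32% of all genes outside the stretch, and 4.08% against 2.57% in PHx1M. Averaged over post-PHx tumors, the gained share of the remaining Zfp genes was 3.49% ± 2.15 (SD, n = 6), beside 3.22% ± 1.97 (SD, n = 6) for all genes.

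Single genes show where the gain ended. Zfp446, on the centromere side, was at 0.01 in PHx3M, and Zfp296, the next member and a protein of early embryonic cells, was at 1.01. Zfp296 was also at 0.86 in PHx1M, where its flanks were at 0.64, and so was higher there than any of the 24 clustered genes, which ranged from -0.03 to 0.51. On the far side Zfp146 was at 1.12 and Zfp536, the next member, at 0.39 in PHx3M. In PHx4M, Zfp536 was at 0.66. Zfp715, the member after it, was at 0.07 in PHx3M and -0.15 in PHx4M.

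**Figure D2:**
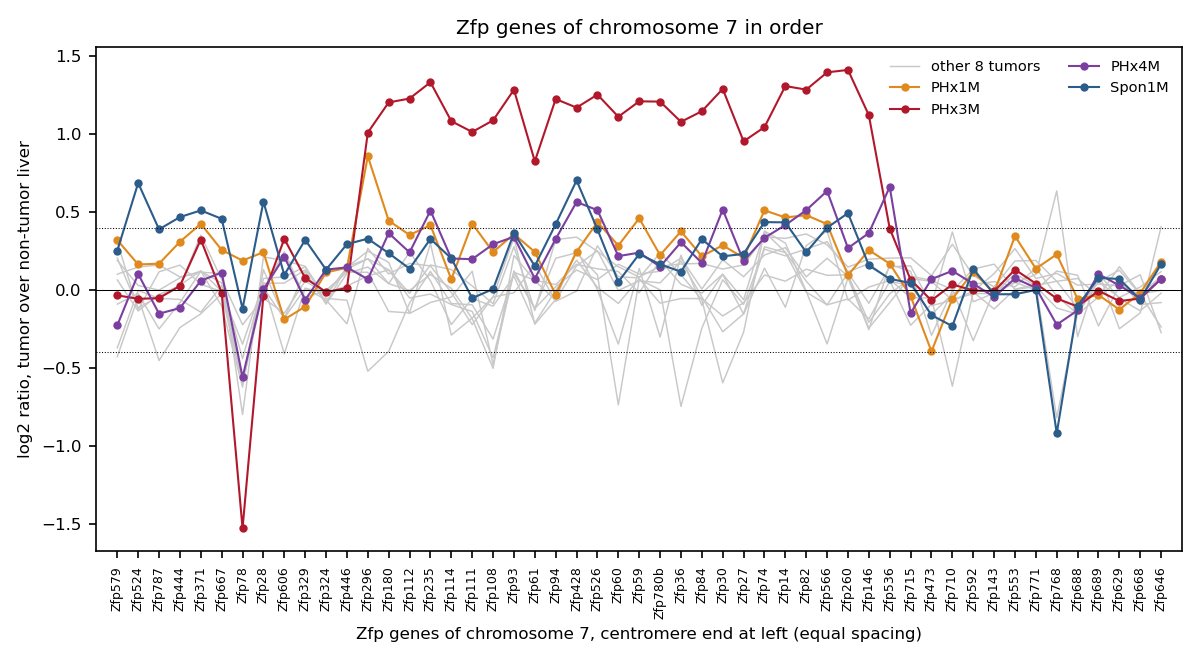
Log2 ratio of tumor over non-tumor liver of the 51 Zfp genes of chromosome 7 in chromosome order, with equal spacing between genes, for PHx1M, PHx3M, PHx4M and Spon1M in colour and the other 8 tumors in grey; dotted lines mark 0.4 and -0.4. PHx3M runs between 0.83 and 1.41 from Zfp180 to Zfp146, and the same genes lie lower and closer to the threshold in PHx1M, PHx4M and Spon1M.

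Genes of the 3 clusters also shared letters in front of their start sites. The RefSeq promoter sequences (GRCm38.p6, from 250 bases before to 50 after the start) covered 23 of the 24 genes by current symbol. The word carried by the most of them on either strand, as found by counting words of 8 to 15 letters and keeping the longest whose count no shorter word exceeded, was ACTACATTTCC (reverse complement GGAAATGTAGT), found in 11 of 23. It was present in 8 of 65 promoters of Zfp genes in the other clusters (12.3%), in 3 of 90 promoters of Zfp genes outside clusters (3.33%) and in 170 of all 27025 genes with a promoter (0.629%). The word was chosen on these promoters, so its count there is a description, and nothing on binding was measured. Stretches of 6 genes, 2 from each cluster, are printed with the bases around the word. In all 6 the word is followed by cag, or its reverse complement preceded by ctg, and bases further out differ in part. Of the 11 genes, Zfp94 and Zfp14, which are not printed, lack these adjoining bases. Each stretch reads 5′ to 3′ on the strand of its gene, and capitals mark the word or its reverse complement.
Zfp111, chr7:24208182-24208232, minus strand: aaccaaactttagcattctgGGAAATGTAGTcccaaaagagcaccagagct
Zfp108, chr7:24254651-24254701, plus strand: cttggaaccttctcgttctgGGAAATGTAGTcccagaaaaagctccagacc
Zfp60, chr7:27731324-27731374, plus strand: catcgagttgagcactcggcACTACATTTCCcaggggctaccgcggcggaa
Zfp780b, chr7:27979188-27979238, minus strand: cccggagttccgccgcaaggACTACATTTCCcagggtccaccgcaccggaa
Zfp74, chr7:29954085-29954135, minus strand: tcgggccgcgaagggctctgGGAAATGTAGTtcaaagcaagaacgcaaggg
Zfp566, chr7:30090556-30090606, minus strand: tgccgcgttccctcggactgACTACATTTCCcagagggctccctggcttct

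All 6 of these genes were gained in PHx3M, at 1.01 (Zfp111), 1.09 (Zfp108), 1.11 (Zfp60), 1.21 (Zfp780b), 1.04 (Zfp74) and 1.40 (Zfp566). These positions are of GRCm38.p6 and cannot be set against the mm8 positions of the probes. In the second cluster, Zfp36 was at 1.08 in PHx3M, 0.38 in PHx1M, 0.31 in PHx4M, 0.20 in PHx5M, 0.19 in PHx6F and -0.06 in PHx2F. In spontaneous tumors it was at 0.12, 0.22, -0.75, 0.17, 0.10 and 0.04 from Spon1M to Spon6F. Its value of -0.75 in Spon3F rested on 1 probe, where the flanks had a median of -0.17.

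The other exceptions among the clusters were losses in spontaneous tumors. The 3 genes from Zfp469 to Zfp316 on chromosome 5 were at -0.50 in Spon3F, with -0.39 in Spon1M and 0.33 in Spon2M, while the other probes of the interval had medians of 0.00, -0.06 and 0.04. Zfp469 carried most of this; the annotation used by RefSeq places a gene of that name on another chromosome, so the identity of its probes is uncertain. The 4 genes from Zfp637 to Zfp9 on chromosome 6 were at -0.42 in Spon2M, and there the other probes were at -0.24 as well. On the centromere side of chromosome 7, the 6 genes from Zfp787 to Zfp28 were at 0.38 in Spon1M and 0.26 in PHx1M, with other probes at 0.30 and 0.18. The 3 genes from Zfp397 to Zfp191 on chromosome 18 were at 0.34 in Spon2M, 0.36 in Spon4F and -0.35 in Spon6F, the last from 2 genes, as Zfp191 was missing there; only 2 other probes lay between them.

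**Figure D3:**
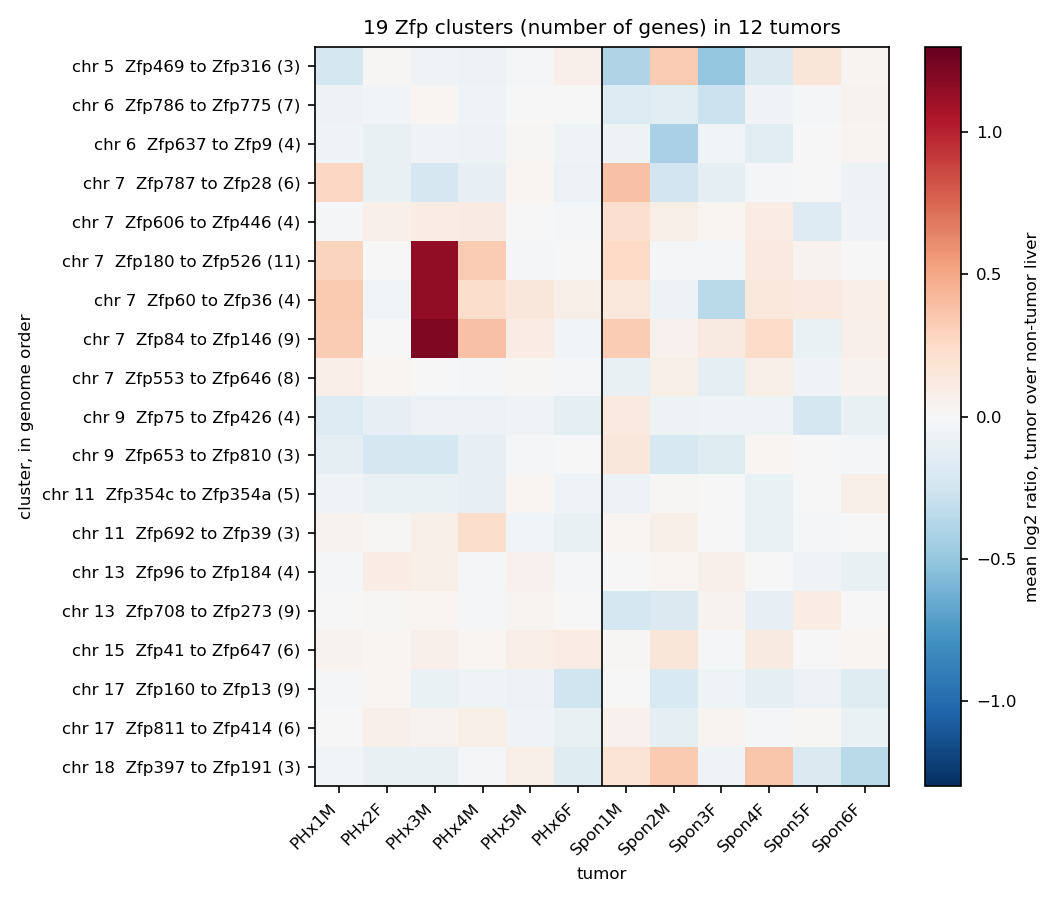
Mean log2 ratio of tumor over non-tumor liver of the Zfp genes of each of 19 clusters (rows, in genome order, with the first and last gene and the number of genes) in each tumor (columns; the line separates post-PHx from spontaneous tumors), 1 array per tumor. The darkest cells are the 3 clusters of chromosome 7 in PHx3M, at 1.15, 1.15 and 1.22.

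The large remaining clusters stayed near 0. The 9 genes from Zfp708 to Zfp273 on chromosome 13 lay within 0.04 of 0 in all post-PHx tumors. Their lowest value was -0.23, in Spon1M, where the other probes were at -0.23 as well. The 9 genes from Zfp160 to Zfp13 on chromosome 17 lay between -0.26 and 0.03, the 8 from Zfp553 to Zfp646 at the far end of chromosome 7 between -0.13 and 0.08, and the 7 from Zfp786 to Zfp775 on chromosome 6 between -0.28 and 0.04. The 4 genes from Zfp75 to Zfp426 and the 3 from Zfp653 to Zfp810 on chromosome 9 were at -0.10 ± 0.05 and -0.12 ± 0.09 (SD, n = 6) in post-PHx tumors and -0.06 ± 0.11 and -0.04 ± 0.13 (SD, n = 6) in spontaneous ones. The last of these holds Zfp809, a KRAB protein that silences proviruses, at -0.04 ± 0.14 in post-PHx and -0.02 ± 0.12 in spontaneous tumors (SD, n = 6).

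Apart from Zfp90, whose highest value came from 1 of its 2 probes, the highest Zfp ratios belonged to genes outside clusters whose flanking probes were gained with them. Zfp438, at chr18:5269478-5288901 (mm8), was gained in 9 of 12 tumors, the most of any member. In post-PHx tumors it was at 0.49, 1.84, 0.87, 0.49, -0.06 and 1.10 from PHx1M to PHx6F. In spontaneous tumors it was at 0.21, 0.45, 3.21, 0.44, -0.14 and 0.70 from Spon1M to Spon6F. Spon3F stood far above the rest, with a ratio of 9.26 and values of 3.14 and 3.28 from the 2 probes. The flanks followed, at 3.06 in Spon3F, 1.67 in PHx2F and 0.90 in PHx6F. The group means of 0.79 ± 0.65 and 0.81 ± 1.21 (SD, n = 6 each) overlapped, and neither passed the test against 0 (limma, adjusted p = 0.233 and 0.197).

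Zfp521, a transcriptional cofactor of blood and neural progenitors, lies on the same chromosome (chr18:13886344-13989259) and was gained in post-PHx tumors without a gain in Spon3F. It was at 0.42, 1.65, 0.82, -0.09, 0.06 and 1.24 from PHx1M to PHx6F. From Spon1M to Spon6F it was at 0.25, 0.33, -0.11, 0.34, -0.27 and -0.45. The flanks lay within 0.20 of the gene in every tumor. The gene was gained in 4 of 6 post-PHx tumors and in no spontaneous one, yet PHx4M and PHx5M lay within the range of the spontaneous tumors, so the groups overlapped. By limma the difference of 0.67 ± 0.27 (SE) had a p of 0.0299 and an adjusted p of 0.985. On the slide that held both groups PHx5M and PHx6F were at 0.06 and 1.24, and Spon5F and Spon6F at -0.27 and -0.45.

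Zfp277, on chromosome 12, was at 2.72 in Spon1M, a ratio of 6.59, with flanks at 3.13. It was at 0.21 in Spon2M and 0.29 in Spon4F, where the flanks were at 0.38 and 0.41, and between -0.15 and 0.16 in the others. Zfp318, on chromosome 17, was at 1.52 in Spon6F and 1.07 in PHx6F, with flanks at 1.38 and 0.97, and between -0.21 and 0.28 in the other 10 tumors. These tumors were both of females and shared a slide. Zfp704, on chromosome 3, reached 0.83 in PHx3M and 0.31 in PHx1M, with flanks at 0.63 and 0.32.

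**Figure D4:**
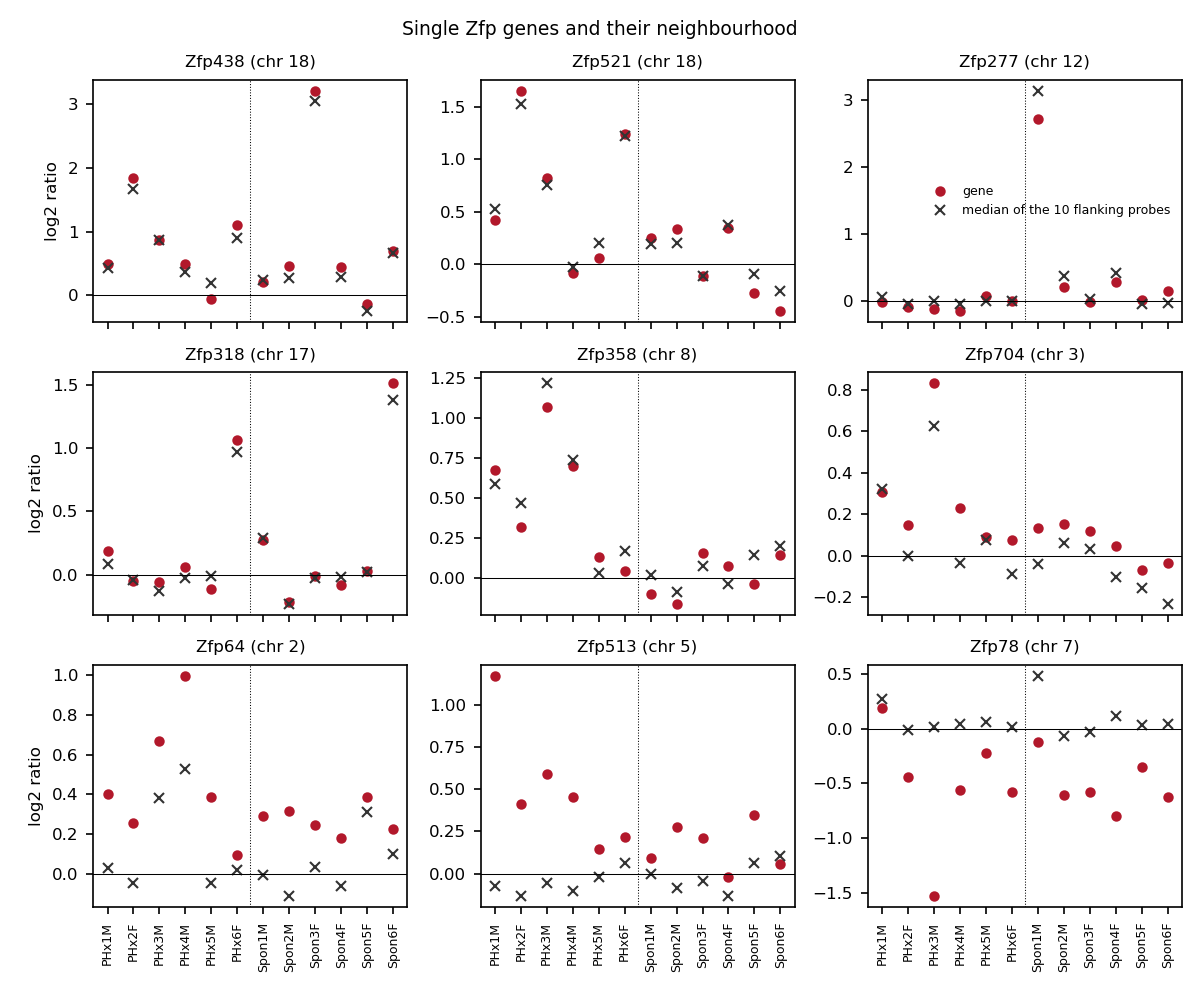
Log2 ratio of tumor over non-tumor liver of 9 Zfp genes (red circles) and the median of their 10 flanking probes (crosses) in each tumor, 1 array per tumor, with post-PHx left and spontaneous tumors right of the dotted line. In Zfp438, Zfp521, Zfp277, Zfp318 and Zfp358 the crosses follow the circles, while Zfp513 reaches 1.18 and Zfp78 reaches -1.53 with flanks near 0.

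Members near the centromere, which lies at the start of every mouse chromosome, were few. The first 20 Mb held 19 Zfp genes (8.64% of them, against 10.49% of all genes), and 13 of the 19 were on chromosome 7. In post-PHx tumors 14.9% ± 10.2 (SD, n = 6) of these were gained, beside 10.7% ± 7.69 of all genes of the same distance; in spontaneous tumors it was 7.89% ± 9.27 beside 5.23% ± 4.84 (SD, n = 6). With 19 genes, each tumor's share rests on 0 to 5 gains. Leaving out 1 tumor moved the mean share of these Zfp genes to between 12.6% and 17.9% (post-PHx) and between 4.21% and 9.47% (spontaneous). From 20 to 50 Mb, where the 3 clusters of chromosome 7 lie, 9.52% ± 11.2 of 84 Zfp genes were gained in post-PHx tumors beside 3.42% ± 1.79 of all genes, and 3.18% ± 3.89 beside 4.70% ± 4.27 in spontaneous tumors (SD, n = 6). From 50 to 100 Mb the post-PHx values were 1.23% of 68 Zfp genes and 1.25% of all genes.

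Zfp358, at chr8:3496869-3496919 (1 probe), had the lowest p between the groups among the proximal members. It was at 0.67, 0.32, 1.07, 0.70, 0.13 and 0.04 from PHx1M to PHx6F and at -0.10, -0.16, 0.16, 0.07, -0.04 and 0.14 from Spon1M to Spon6F. The flanks reached 0.59, 0.47, 1.22 and 0.74 in the first 4. PHx5M and PHx6F fell within the range of the spontaneous tumors, and both lie on another slide than the first 4, so that slide and the higher values move together. The post-PHx mean of 0.49 ± 0.11 (SE) passed the test against 0 (limma, adjusted p = 0.0347). By limma the difference of 0.48 ± 0.15 (SE) had a p of 0.0081 and an adjusted p of 0.985.

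Between the groups limma called no gene at all at an adjusted p of 0.05, neither a higher one (0% of 19850) nor a lower one (0%). Before adjustment 10 of the 220 Zfp genes (of 842 genes, 4.24% of all) had a p under 0.05, and the methods' t-test gave 12. The values of the groups were separate in 0 of the 220 Zfp genes and in 39 of all 19850 genes (0.196%). The lowest p among members was that of Zfp623, 0.00635, for a difference of 0.20 ± 0.062 (SE).

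Against 0, that is tumor against own liver, 5 Zfp genes were higher in post-PHx tumors, where 1.52% of all genes were, and 1 was lower, where 1.06% were. In spontaneous tumors 2 were higher (2.18% of all genes) and 2 lower (2.08%). Of these 9 genes 7 rested on a single probe. No Zfp gene was called in either group when each probe was replaced by the running median of 5 neighbouring probes, a setting under which 0 of all 19850 genes were called in post-PHx tumors and 4 higher and 4 lower in spontaneous tumors. With slide as a random block none was called in post-PHx and 1, Zfp612, in spontaneous tumors, where 0.237% and 0.403% of all genes were.

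Zfp64 and Zfp217 lie near the far end of chromosome 2, and the human counterpart of the latter is a known amplified gene in breast cancer. Zfp64 was at 0.40, 0.26, 0.67, 0.996, 0.39 and 0.10 from PHx1M to PHx6F, with a mean of 0.47 ± 0.088 (SE) and an adjusted p of 0.0218 by limma. It was also above 0 in all 6 spontaneous tumors, between 0.18 and 0.39. Its flanks were at 0.53 in PHx4M, 0.38 in PHx3M and 0.31 in Spon5F, and within 0.11 of 0 in the other 9 tumors. Zfp217 was at 0.55 in PHx4M, 0.64 in PHx3M and 0.29 in Spon5F, with flanks at 0.63, 0.44 and 0.31. This single-probe gene was also at 0.35 in PHx1M and -0.37 in Spon4F, where its flanks were at 0.01 and -0.06, and it did not pass the test (adjusted p = 0.105 in post-PHx tumors). Zfp313 (Rnf114), nearby, was at 0.69 in PHx4M and 0.37 in PHx3M with flanks at 0.63 and 0.45.

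Of the remaining called genes, Zfp513 and Zfp612 differed from their surroundings. Zfp513 had 1.18, 0.41, 0.59, 0.45, 0.15 and 0.22 from PHx1M to PHx6F (0.50 ± 0.10 SE, adjusted p = 0.0283, limma), all above 0, where its flanks lay between -0.13 and 0.06. Zfp612 was above 0 in all 12 tumors, at 0.20 ± 0.046 (SE) in post-PHx and 0.27 ± 0.046 in spontaneous tumors (limma, adjusted p = 0.036 and 0.0127), and its flanks were between -0.22 and 0.09. Zfp74, in the last cluster of chromosome 7, was at 0.41 ± 0.094 (SE, adjusted p = 0.0371, limma) in post-PHx tumors and also above 0 in every spontaneous tumor; its flanks were at 1.11 in PHx3M and 0.31 in PHx1M. Zfp238 (Zbtb18, a repressor needed in neural development) was below 0 in all post-PHx tumors, between -0.40 and -0.15, with a mean of -0.26 ± 0.049 (SE, adjusted p = 0.0193, limma). From Spon1M to Spon6F it was at -0.14, 0.01, 0.06, -0.20, -0.21 and -0.20, and Zfp513 at 0.09, 0.28, 0.21, -0.02, 0.35 and 0.06. Each of these genes had 1 probe.

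In spontaneous tumors Zfp326 was between 0.09 and 0.28 (0.20 ± 0.038 SE, adjusted p = 0.0188, limma) and Zfp72 between -0.35 and -0.14 (-0.22 ± 0.042 SE, adjusted p = 0.0176). As gene means, both shifts ran the same way on all 12 arrays. In post-PHx tumors Zfp326 was between 0.08 and 0.24 and Zfp72 between -0.23 and 0.00, and neither passed the test (limma, adjusted p = 0.0537 and 0.181). The second probe of Zfp326 was at -0.07 in PHx3M and -0.09 in Spon4F. Zfp37 was lower, at -0.77, -0.61, -0.04, -0.36, -0.37 and -0.35 from Spon1M to Spon6F (-0.42 ± 0.079 SE, adjusted p = 0.0176, limma). Its value in Spon1M rested on the second of its probes alone, as the first had no usable spot there. Zfp37 was below 0 in all 6 post-PHx tumors too, where it did not pass the test (limma, adjusted p = 0.102). Its flanks were at -0.24 in Spon1M and -0.33 in Spon2M and within 0.11 of 0 in the other spontaneous tumors.

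Zfp78 was the most often lost member, in 4 post-PHx and 4 spontaneous tumors. From PHx1M to PHx6F it was at 0.19, -0.44, -1.53, -0.56, -0.22 and -0.58, and from Spon1M to Spon6F at -0.12, -0.60, -0.58, -0.80, -0.35 and -0.62. The neighbours on both sides, Zfp667 and Zfp28, were at -0.02 and -0.04 in PHx3M, and the flanks were between -0.06 and 0.49 over all tumors. The gene has a single probe, whose tumor signal in PHx3M was 1.53 times its background, the lowest of all arrays, and not well above it.

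Recurrence within a group was counted as a gain or loss in at least 3 of 6 tumors. In post-PHx tumors 10 Zfp genes were gained so often (4.55%, against 1.14% of all genes): Zfp235, Zfp526, Zfp14, Zfp82 and Zfp566 of the chromosome 7 clusters, and Zfp64, Zfp513, Zfp358, Zfp438 and Zfp521. The same 3 tumors, PHx1M, PHx3M and PHx4M, gave the gains of the 5 clustered genes, which share 1 segment, so their counts are not independent. In spontaneous tumors Zfp438 and Zfp202 were gained in at least 3 (0.909%, against 0.811%), and Zfp438 was the only member to be so in both groups. Losses in at least 3 tumors were found for Zfp78 in post-PHx (0.455%, against 0.166%) and for Zfp78 and Zfp52 in spontaneous tumors (0.909%, against 0.549%).

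Several Zfp genes had single probes that moved apart from the rest of the gene in Spon1M, Spon2M and Spon3F. In Zfp777, on chromosome 6, 3 adjacent probes between 47953766 and 47953974 were at -1.77, -2.26 and -1.79 in Spon1M and at -1.82, -2.45 and -1.87 in Spon3F. In Spon2M they were at 1.43, 2.08 and 1.37, and in the other 9 tumors between -0.34 and 0.35. The 3 remaining probes of the gene, the nearest of which starts at 47955385, lay between -0.49 and 0.06 in these 3 tumors. In Zfp90, 1 probe was at -3.07, 3.32 and -1.66 in Spon1M, Spon2M and Spon3F and the other at 0.09, 0.08 and 0.15. Gene means of -1.49 and 1.70 made Zfp90 the lowest member in Spon1M and the highest in Spon2M.

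The pattern was wider than the family. Across the autosomes 302 probes (0.743%) were at -1 or less in Spon1M and Spon3F and at 1 or more in Spon2M, and none the other way round. The Zfp genes held 6 of them (1.53% of their 393 probes), in Zfp341, Zfp469, Zfp777 and Zfp90. Zfp768 had the same directions short of this cut, at gene means of -0.92, 0.64 and -0.82 in Spon1M, Spon2M and Spon3F. In the other 9 tumors the median of the 302 probes was between -0.03 and 0.21. The 3 tumors lay on 1 slide with Spon4F, which did not share it. The part of probe sequence or of the liver reference of these mice in the pattern was not tested. The losses of Zfp341, Zfp469, Zfp777 and Zfp90, and their gains in Spon2M, are given for their probes and not for the genes.

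**Figure D5:**
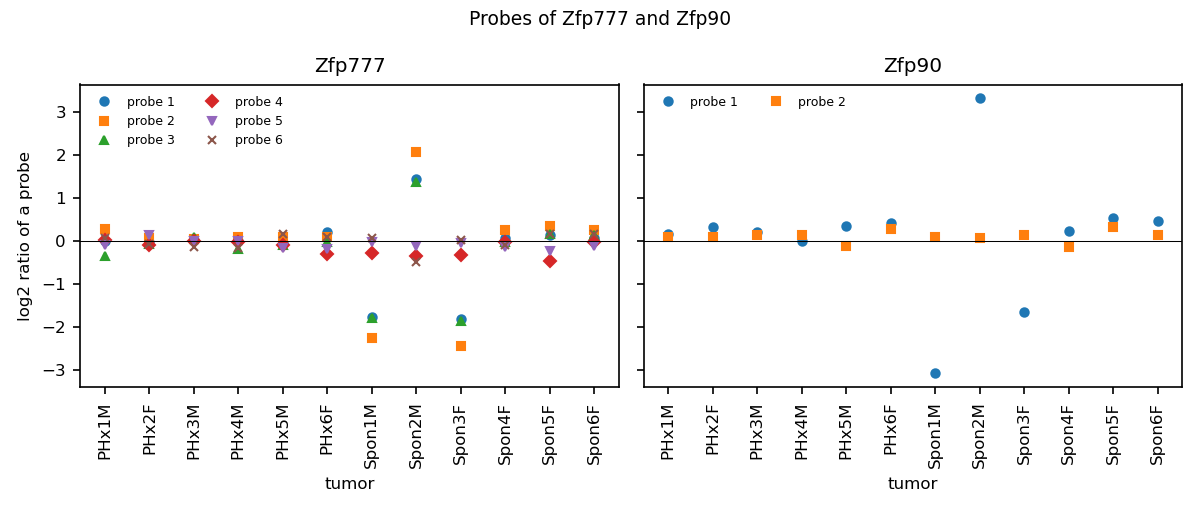
Log2 ratio of tumor over non-tumor liver of the 6 probes of Zfp777 (left) and the 2 probes of Zfp90 (right) in each of 12 tumors, 1 array per tumor. Probes 1 to 3 of Zfp777 and probe 1 of Zfp90 are low in Spon1M and Spon3F and high in Spon2M, and the other probes of both genes stay between -0.49 and 0.32.

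Most well-known members outside the segments above had group means near 0. Zfp143, an activator of small nuclear RNA genes, was at -0.01 ± 0.03 and 0.02 ± 0.10, and Zfp148 at 0.00 ± 0.08 and -0.06 ± 0.17 (post-PHx and spontaneous means, SD, n = 6). Zfp42 (Rex1), a pluripotency marker, was at 0.12 ± 0.12 and 0.09 ± 0.07, Zfp423, a determinant of fat cells, at -0.05 ± 0.07 and 0.00 ± 0.21, and Zfp36l2, a relative of Zfp36, at 0.07 ± 0.09 and -0.05 ± 0.20. Zfp57, which keeps genomic imprints, was below 0 in all 6 post-PHx tumors (-0.30 ± 0.12, SD, n = 6) and at -0.23 ± 0.34 in spontaneous ones, without passing the test (limma, adjusted p = 0.111 and 0.176). It was lost in 3 tumors and had 1 probe. Zfp384, Zfp365 and Zfp207 had group means between -0.13 and 0.06. Zfp281 had group means of 0.04 and 0.12, but was gained in Spon2M at 0.83 and in Spon3F at 0.41, with flanks at 0.28 and 0.02.

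The partners through which KRAB zinc finger proteins act were followed as a list of 22 genes, of which 21 were on the array. Their median was 0.02 in post-PHx and -0.02 in spontaneous tumors, beside 0.01 and -0.01 for all genes. Only Mta1, a subunit of the NuRD complex on chromosome 12, passed the test, and only in spontaneous tumors (0.33, limma, adjusted p = 0.0176), a call of 1 in 21 where 2.18% of all genes were called higher; none passed the test between the groups. On average 3.97% of the 21 were gained and 0% lost in post-PHx tumors (all genes 3.37% and 1.04%), and 6.35% and 3.97% in spontaneous tumors (all genes 4.22% and 5.19%). Trim28 had 1 probe, which was at -2.14 in Spon1M, 2.38 in Spon2M and -2.65 in Spon3F and between -0.09 and 0.41 elsewhere, the pattern of the probes of Zfp777. The 39 zinc finger genes under other names (Zbtb, Zkscan, Zscan, Peg3, Zik1 and Zim1) had medians of 0.01 in both groups. None was called higher and only Zbtb17 lower, in spontaneous tumors, a call of 1 in 39 where 2.08% of all genes were called lower. On average 2.56% of these 39 were gained in post-PHx and 6.03% in spontaneous tumors, beside 3.37% and 4.22% of all genes and 6.15% and 4.02% of the Zfp genes.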

How the data were processed

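Tumor DNA and matched non-tumor liver DNA were co-hybridized on 4x44K mouse CGH arrays, and the authors extracted the signals with Agilent Feature Extraction. The deposited log10 ratios of tumor over liver come from dye-normalized, background-subtracted processed signal intensity values; the mean and background intensity columns, also deposited, gave the signal over background and served one alternative. Log10 ratios were turned into log2, spots flagged as outliers (108 to 1218 per array) and control spots were dropped, spots of a probe and probes of a gene name were averaged, and arrays were centred on the autosomal median. Per the file headers, positions are of mm8. The members and lists were chosen with earlier results of these data known, as were the flanking-probe counts, the promoter word and the probe pattern.

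Group means were tested with limma 3.58.1 (R 4.3.3; lmFit and eBayes) on all 12 arrays, each group against 0 and the groups against each other, with Benjamini-Hochberg adjustment over 19850 genes at 0.05. The test was tried on simulated data. Each p-value sets a mean against the spread between these tumors. That spread was estimated over both groups together and moderated across genes, so each group's test also depends on the other group's tumors. Clusters joined Zfp genes within 1 Mb, at least 3 of them. Genes named are up to 5 with the lowest adjusted p under 0.05 per contrast and direction, the highest and the lowest gene of each tumor among those with at least 2 probes where it is past 0.4, the ends of clusters, and a list of characterised members; all other genes, such as Zfp78, Zfp296, Zfp704, Zfp623, Zfp52, Zfp341 and those named for recurrence, for a promoter or within the chromosome 7 gain, were named after their values were seen. All 220 names matched RefSeq genes, 24 under a newer symbol. Alternatives changed the centring, background correction, probe filters, thresholds, joining distance, test, block, and left out each tumor.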

Additional observations from a re-analysis of the deposited data

Results flagged for a closer look

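Among the 116 sets of 6 tumors examined (each cluster, gene and summary value within a group), 14 had a value that stood apart from the other 5 by more than Dixon's critical share of the range. Many of the genes were examined because they held the highest or lowest value of a tumor, so the rate of about 1 in 20 that chance gives for sets chosen without their values does not apply to this count. In PHx3M these were the 3 clusters of chromosome 7, at mean log2 ratios of 1.15 (Zfp180 to Zfp526), 1.15 (Zfp60 to Zfp36) and 1.22 (Zfp84 to Zfp146), and Zfp14 within the last of them at 1.31. They lie on 1 gained segment, so these values are not independent of one another.

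Zfp438 stood apart in Spon3F at 3.21, Zfp277 in Spon1M at 2.72, and Zfp318 in PHx6F at 1.07 and again in Spon6F at 1.52, each with flanking probes at similar values. Zfp395 stood apart in Spon5F at -0.44, where its flanks were at -0.57, and Zfp650 (Ubr3) in Spon5F at 0.51, where its flanks were at 0.17.

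Other values stood apart without their surroundings. Zfp169 was at 0.41 in PHx5M with flanks at 0.07. Zfp36 was at -0.75 in Spon3F with flanks at -0.17. Zfp202 was at -1.03 in Spon3F, from 1 probe at -2.45 and another at 0.40, and at -0.0175 in PHx6F, where it was lower than in the other post-PHx tumors.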

How the results depend on the processing

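The counts of Zfp genes called against 0 (6 in post-PHx and 4 in spontaneous tumors) depended most on the processing. With normexp background correction they were 52 and 38 (of all genes 18.0% and 19.2%, where 2.58% and 4.25% were called otherwise), with array weights 48 and 2 (14.0% and 0.851%), with genes of at least 2 probes 0 and 2 (0.821% and 3.23%), with a running median of 5 probes 0 and 0 (0% and 0.0403%), and with slide as a random block 0 and 1 (0.237% and 0.403%). With sex as a covariate they were 3 and 6 (1.68% and 5.25%). The methods' t-test gave 48 and 38 at an unadjusted p of 0.05 (25.2% and 14.4% of all genes), and 12 between the groups (4.15%). After adjustment it gave 5 and 0 (3.45% and 0% of all genes). The 5, of which 1 was higher and 4 lower, were Zfp238, Zfp612, Zfp57, Zfp291 and Zfp410. Zfp64, Zfp513, Zfp358 and Zfp74, called by limma, were not among them. Leaving out 1 tumor gave 0 (without PHx1M) to 10 (without Spon2M) in post-PHx tumors and 3 to 6 in spontaneous tumors, where the shares of all genes ran from 0.393% to 4.37% and from 1.32% to 3.89%; without PHx2F, PHx3M or PHx4M it was 1 in post-PHx tumors. The post-PHx calls of Zfp74 and Zfp612 were lost on leaving out any post-PHx tumor. Those of Zfp513 and Zfp358 were lost without PHx1M, PHx2F, PHx3M or PHx4M. Zfp64 lost its call without PHx1M or PHx3M, and Zfp238 without PHx1M, PHx2F or PHx4M. The cause was not tested. Between the groups 0 Zfp genes were called under every alternative. At an unadjusted p of 0.05 there were 2 (slide as a fixed block, added after seeing the data) to 15 (without PHx6F). The shares of all genes under those settings were 2.97% and 4.60%. With the tumor number as a replicate block 0 were called and 10 had an unadjusted p under 0.05 (4.21% of all genes). The numbers do not pair the tumors, as deviations of same-numbered tumors correlated at -0.04 to 0.04 except for PHx6F and Spon6F (0.45).

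The median of the Zfp genes in post-PHx tumors was 0.0023 with genes of at least 2 probes. The gained share in spontaneous tumors was 11.8% at a threshold of 0.25. The lost share in post-PHx tumors was 0.986%, and 4.32% at 0.25, 0.228% at 0.6, 0.249% with genes of at least 2 probes and 0.0758% with a running median of 5; in spontaneous tumors it was 10.8% at 0.25. The gained share of proximal Zfp genes in spontaneous tumors was 18.4% at 0.25. Leaving out 1 tumor moved the gained share to 4.27 to 7.2% (post-PHx, lowest without PHx3M) and 3.00 to 4.55% (spontaneous), the lost share to 0.729 to 1.09% and 3.28 to 4.55%, the proximal gained share to 12.6 to 17.9% and 4.21 to 9.47%, and the medians to 0.015 to 0.022 and 0.00018 to 0.012. The means of clusters moved by less than the spread between tumors in 520 of 526 comparisons with an alternative. The gained and lost shares of single tumors moved in 43 of 216 such comparisons.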

Other observations

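Some single-probe members reached values that their flanks did not share. Zfp593, on chromosome 4, was at -3.13 in Spon3F, the lowest value of any member, and between -0.38 and 0.30 in the other 11 tumors, with flanks at 0.02 in Spon3F. Zfp52, on chromosome 17, ran from -0.81 in PHx6F to 0.79 in PHx1M, where its flanks were at -0.16 and -0.14, and was also at -0.73 in Spon5F and -0.54 in Spon6F. Zfp219 was at 0.69 in PHx5M, 0.59 in Spon4F and 0.62 in Spon6F and at -0.62 in PHx6F, with flanks at 0.09 in PHx5M. Of the members with at least 2 probes, Zfp804a, on chromosome 2, was the lowest in PHx6F at -0.46 with flanks at -0.05, and was at -0.32 in Spon6F. Zfp518, on chromosome 19, was the lowest in Spon6F at -0.46 with flanks at -0.13, and was at -0.43 in Spon2M and -0.36 in Spon1M.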
